A study of Homo sapiens with 12 samples.

Results

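The genes described here are 10 components of the NF-κB pathway: the subunit genes RELA, NFKB1, NFKB2 and RELB, the inhibitor genes NFKBIA, NFKBIB and NFKBIE, the nuclear IκB gene NFKBIZ, the feedback gene TNFAIP3, and the kinase gene IKBKB. They were taken as a list of symbols, drawn up with earlier results of these data known, from the 38716 gene symbols of the deposited tables, of which 16451 had a read in the coding sequence (CDS). The series belongs to a study of HMGB1 on the way to senescence, and this comparison asks which mRNAs and which footprints differ between proliferating and senescent cells. Its cells were IMR90, a line of human fetal lung fibroblasts, either proliferating (Pro) or passaged to replicative exhaustion until senescent (Sen). Both states were grown in MEM with serum and lysed in the presence of cycloheximide, which holds ribosomes on the mRNA, and 3 lysates of each state gave 1 Ribo-seq and 1 RNA-seq library each. The labels name no deletion and no transgene in either state. The labels name 2 isolates of the line without assigning them to samples, so isolate and state cannot be told apart. File names of the proliferating RNA-seq libraries carry a tag like the solvent name DMSO, and whether those cultures received it is not known.

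NF-κB is a family of transcription factors that act as dimers of Rel-domain proteins. In resting cells most dimers are held in the cytoplasm by IκB proteins, and inflammatory signals activate the IκB kinase, which marks IκB for destruction and frees the dimer to enter the nucleus. Several IκB genes, the precursor subunits and TNFAIP3 are themselves NF-κB targets, which makes the pathway limit itself, and in senescent fibroblasts NF-κB is known as a driver of the inflammatory secretory programme.

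Ribosome-protected fragments (RPF) were the CDS reads of a Ribo-seq library, and mRNA was the sum of the 5′ UTR, CDS and 3′ UTR reads of an RNA-seq library. RNA-seq libraries held between 7902427 and 14144455 such reads. Ribo-seq libraries held between 54421 and 1718521, and Pro 1 and Sen 2 stood far below the others with 2.29% of all CDS reads between them. A floor of 3 counts was 55.1 and 54.8 CPM (counts scaled to library size) in these shallow libraries and at most 5.14 CPM in the other 4. The 10 genes together had 17 CDS footprints in Pro 1 and 16 in Sen 2, so values from both are shown and weigh little in the fits. The state labels held against 2 of the 4 listed state markers. LMNB1, a lamin lost in senescence, was 7.18-fold lower in senescent mRNA, and CDKN1A, the cell cycle inhibitor p21, was 3.04-fold higher. Values of the other listed markers, CDKN2A and MKI67, are not given here. Fibroblast markers (8 genes, 0 of them at 0) summed to between 26726 and 31749 CPM over the 6 RNA-seq libraries. The 2 epithelial markers summed to at most 1.71 CPM and the 3 endothelial markers to at most 1.03 CPM, with CDH5 at 0. The 3 leukocyte markers summed to 19.1 to 21.4 CPM in Pro and 32.0 to 35.2 CPM in Sen, nearly all of it CD68, a lysosomal protein that fibroblasts also make, while PTPRC (CD45) had at most 2 reads in any library.

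For several of these genes, κB elements at their own promoters are the textbook route of response to NF-κB. The κB consensus was therefore searched on both strands of RefSeq promoter windows (GRCh38.p14, from 250 bases before to 50 bases after an annotated start). The consensus has a run of G at one end, a run of C at the other, and a purine, unrestricted bases and pyrimidines between them. Of the 10 genes, 7 had windows, and 8 of their 13 windows, in 6 genes, held a match. Over all 35116 windows of the reference the share was 11.3%, and over its 27305 symbols it was 13.3%. For each of the 6 genes the stretch nearest to a start is shown on the strand of the gene, with the matched bases in capitals.
NFKB1: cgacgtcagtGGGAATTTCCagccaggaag
NFKB2: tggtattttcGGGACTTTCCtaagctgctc
NFKBIA: tgactggcttGGAAATTCCCcgagcctgac
NFKBIB: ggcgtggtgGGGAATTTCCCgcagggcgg
NFKBIZ: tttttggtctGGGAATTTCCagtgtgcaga
TNFAIP3: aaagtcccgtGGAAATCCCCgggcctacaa

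The NFKB1 stretch lies at chr4:102501300-102501329 and its match begins 49 bases before the start. The NFKB2 match begins 21 bases before a start (chr10:102395674-102395703), and the NFKBIZ match 223 bases before (chr3:101827757-101827786). For TNFAIP3 (chr6:137867194-137867223) and NFKBIA (chr14:35404811-35404840) the consensus reads on the other strand, 55 and 81 bases before the start. NFKBIB (chr19:38899932-38899960) matched on both strands, 28 bases before. NFKB2 held the most matched stretches, 4 in all over 2 of its 3 windows. The 2 RELA windows held no match, which says only that these letters are not there. RELB, NFKBIE and IKBKB had no window to search. All of this describes sequence, and binding was not measured.

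At the mRNA level the set split by gene. RELA, NFKBIB, NFKBIZ and IKBKB rose in senescent cells, whereas NFKB1, NFKB2, RELB, NFKBIA, NFKBIE and TNFAIP3 fell. NFKBIZ gained most (2.42-fold) and TNFAIP3 lost most (2.85-fold). All 10 passed the threshold (edgeR quasi-likelihood test, Benjamini-Hochberg adjusted p under 0.15), but so did 73.6% of the 12790 tested genes, with 36.6% higher and 37.0% lower, against 4 and 6 of the 10. Sen and Pro were fully separated in 9 of the 10 genes, and in 67.8% of all tested genes. The median log2 fold change of the 10 was -0.45, and that of all tested genes was -0.01. With library totals in place of TMM factors the median of all genes moved to -0.11, and the higher share of calls moved from 49.7% to 40.4%, while none of the 10 genes turned its sign. Nothing in the labels says more about the replicates than that they were independent cultures, so p-values measure the spread between these samples. In bulk RNA, fewer cells with a transcript and less of it per cell cannot be told apart.

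**Figure D1:**
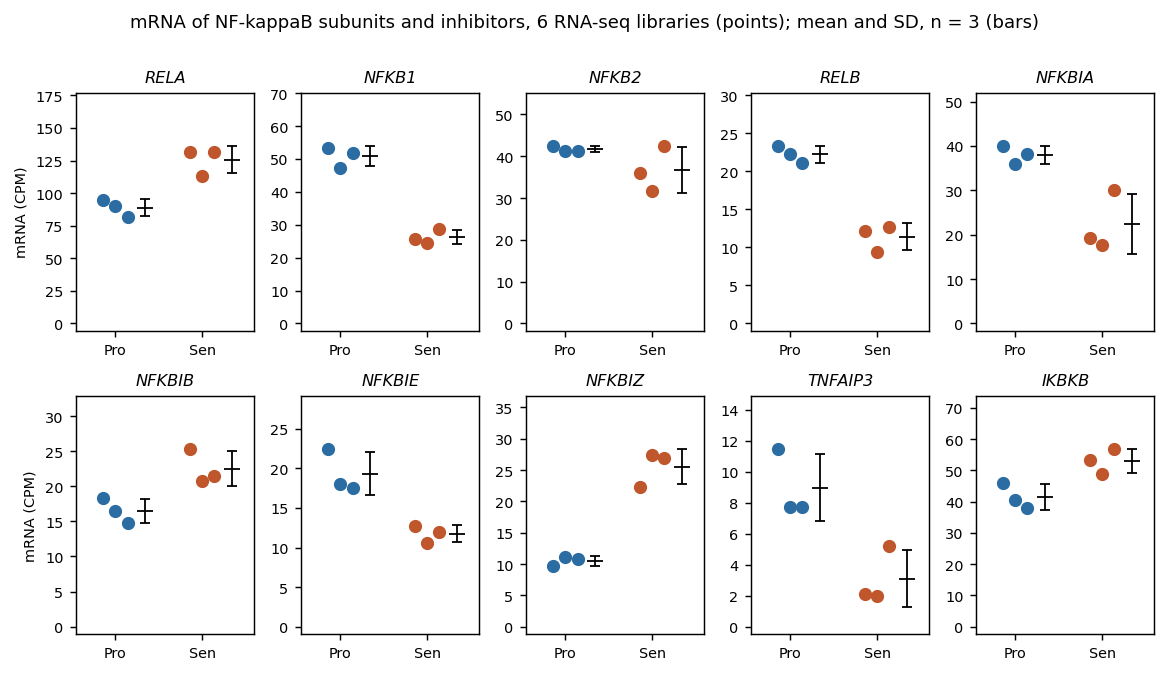
mRNA in CPM (vertical axis, from 0) of the 10 genes in the 3 Pro and 3 Sen RNA-seq libraries, 1 point per library, with the mean and SD (n = 3) beside each group. The groups overlap for NFKB2 alone, whose Sen 3 library at 42.5 CPM stands level with Pro 1.

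RELA encodes p65, the subunit that carries the main transactivation domain (chr11:65421070-65430561 in GRCh37). Its mRNA measured 94.9, 90.2 and 81.7 CPM in Pro 1, 2 and 3 and 132, 113 and 132 CPM in Sen 1, 2 and 3. Every senescent library lay above every proliferating one, with means of 89.0 ± 6.70 and 126 ± 10.6 CPM (SD over 3 libraries). The log2 fold change was 0.50 (SE 0.08, adjusted p = 1.16e-05).

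NFKB1 encodes p105, the precursor of p50, which pairs with p65 in the classical dimer (chr4:103422487-103538459 in GRCh37). Its mRNA went the other way, from 53.3, 47.4 and 51.9 CPM in Pro to 25.5, 24.5 and 28.6 CPM in Sen. The groups lay wide apart, at 50.9 ± 3.13 against 26.2 ± 2.14 CPM. The fitted change was 1.94-fold downward (log2 -0.96, SE 0.09, adjusted p = 4.12e-09).

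RELB encodes the partner of p52 in the alternative pathway (chr19:45504719-45541450 in GRCh37). Its mRNA was 23.3, 22.2 and 21.0 CPM in Pro and 12.1, 9.38 and 12.7 CPM in Sen. Again no libraries of the states overlapped, and the fall was 1.96-fold (log2 -0.97, SE 0.12, adjusted p = 2.66e-07).

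NFKB2 encodes p100, the precursor of p52. It gave 42.5, 41.2 and 41.3 CPM in Pro, nearly without spread, and 36.0, 31.7 and 42.5 CPM in Sen. Sen 3 stood at the level of Pro while Sen 1 and Sen 2 stood below. The log2 fold change was -0.19 (SE 0.10, adjusted p = 0.093), the smallest of the set. This call was lost without Pro 1 (adjusted p = 0.167), without Sen 1 (adjusted p = 0.183), without Sen 2 (adjusted p = 0.421) and by DESeq2 (adjusted p = 0.172), so a change of NFKB2 mRNA rests on single libraries.

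Of the classical IκB inhibitors, NFKBIA encodes IκBα, which is rapidly degraded and resynthesised after a stimulus (chr14:35870285-35873955 in GRCh37). Its mRNA was 39.9, 35.9 and 38.3 CPM in Pro and 19.4, 17.7 and 30.1 CPM in Sen. Sen 3 was the highest senescent library but still lay below all of Pro. The fall was 1.70-fold (log2 -0.77, SE 0.13, adjusted p = 3.17e-05).

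NFKBIE, the gene of IκBε, an inhibitor that acts more slowly than IκBα, gave 22.5, 18.0 and 17.5 CPM in Pro and 12.7, 10.6 and 11.97 CPM in Sen. The states did not overlap. Its fall was 1.64-fold (log2 -0.72, SE 0.12, adjusted p = 2.22e-05).

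NFKBIB, the gene of IκBβ, opposed both of these, with 18.3, 16.4 and 14.8 CPM in Pro against 25.3, 20.7 and 21.5 CPM in Sen. All senescent libraries were higher, by 1.36-fold in the fit (log2 0.45, SE 0.11, adjusted p = 0.00128). The gene overlaps SIRT2 on the opposite strand in the GENCODE 44 annotation, and whether the counting used strand is not given in the sources used here.

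NFKBIZ encodes IκBζ, a nuclear IκB protein that works as a coactivator at a subset of NF-κB targets, IL6 among them. Its locus is chr3:101546835-101579866 (GRCh37). Proliferating libraries held 9.64, 11.2 and 10.8 CPM, and senescent libraries held 22.3, 27.5 and 26.9 CPM. The lowest senescent library was far above the highest proliferating one. The log2 fold change was 1.28 (SE 0.11, adjusted p = 2.4e-09), the largest rise of the set. NXPE3 overlaps it on the same strand, so some of its reads could belong to either gene.

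TNFAIP3 encodes A20, a ubiquitin-editing enzyme that shuts off signalling upstream of the IκB kinase (chr6:138188351-138204451 in GRCh37). Its mRNA was low in both states, at 11.5, 7.69 and 7.72 CPM in Pro (94, 90 and 83 reads) and 2.13, 1.98 and 5.21 CPM in Sen (20, 27 and 57 reads). Sen 3 was again the highest senescent library, and no libraries overlapped between the states. The log2 fold change was -1.51 (SE 0.25, adjusted p = 1.6e-05), and without Sen 3 the fall was 4.31-fold in place of 2.85-fold.

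IKBKB encodes IKKβ, the catalytic kinase that phosphorylates IκBα. It gave 46.1, 40.7 and 38.0 CPM in Pro and 53.2, 49.0 and 56.8 CPM in Sen. The rise was small and the states did not overlap (1.28-fold, log2 0.35, SE 0.09, adjusted p = 0.00139).

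The balance between these genes could also be read without any scaling, as reads per RELA read of the same library, a measure chosen after the values were seen. Per RELA read, NFKBIA had 0.398 to 0.468 mRNA reads in the 3 Pro libraries and 0.147 to 0.228 in the 3 Sen libraries. NFKB1 had 0.525 to 0.636 and 0.194 to 0.217. NFKB2, whose CPM overlapped, had 0.447 to 0.506 in Pro and 0.273 to 0.323 in Sen. Relative to RELA, which itself rose 1.41-fold, all 3 were lower in every senescent RNA-seq library. Per RELA footprint all 3 overlapped between the states, with NFKB2 from 0.111 to 0.936 in Pro and from 0.652 to 1.36 in Sen. For NFKBIA and NFKB1 the overlap rested on Pro 1, which held 1 footprint of each and 9 of RELA. Outside the shallow libraries Pro 1 and Sen 2, NFKBIA had 0.686 and 0.917 in Pro and 0.261 and 0.422 in Sen. NFKB1 there had 0.765 and 0.991 in Pro and 0.292 and 0.422 in Sen. NFKB2 overlapped there too, at 0.608 and 0.936 in Pro and 0.652 and 1.36 in Sen. NFKBIZ had more mRNA reads per RELA read in every senescent library, at 0.102 to 0.132 in Pro and 0.169 to 0.242 in Sen. Its footprint ratio was apart as well, at 0 to 0.157 in Pro and 0.298 to 1.33 in Sen, with 0 footprints in Pro 1.

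Per kilobase of coding sequence, on CDS reads of RNA-seq, RELA led both states, at 38.0 ± 3.89 CPM per kb in Pro and 53.1 ± 5.73 in Sen. NFKBIA stood next in Pro at 28.5 ± 1.49, apart from its neighbours on either side. NFKB1 (15.2 ± 0.680), NFKB2 (15.0 ± 0.260), NFKBIB (14.1 ± 1.74), IKBKB (13.2 ± 1.28) and NFKBIE (12.5 ± 0.986) followed, each overlapping the next over its 3 libraries. RELB (10.1 ± 0.423) came below them, and NFKBIZ (3.45 ± 0.288) and TNFAIP3 (2.35 ± 0.726) were lowest and overlapped. In Sen, NFKBIB (18.6 ± 2.31), IKBKB (16.2 ± 1.39), NFKBIA (16.1 ± 4.16) and NFKB2 (13.2 ± 1.998) formed an overlapping series below RELA. NFKBIZ (8.01 ± 0.702), NFKBIE (7.99 ± 1.31) and NFKB1 (7.69 ± 0.688) overlapped at the next level, above RELB (5.23 ± 0.627). TNFAIP3 remained last at 0.679 ± 0.526. NFKB1 thus went from rank 3 to rank 8, and NFKBIZ from rank 9 to rank 6.

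The 3′ UTR share of a gene's mRNA reads was also compared. Over the 10505 genes averaging 50 reads or more, the states were apart for 13.2%. NFKBIB had no 3′ UTR read and could not be compared, and in none of the other genes of the set were they apart. RELA kept 22.9 ± 0.196% of its reads in the 3′ UTR in Pro and 24.2 ± 2.40% in Sen. NFKB1 had 9.40 ± 1.20% and 10.4 ± 0.757%. TNFAIP3 had 63.9% in Sen 1, on 20 reads in all, beside 30.2% and 31.6% in Sen 2 and Sen 3 and 31.1 ± 1.29% in Pro. NFKB2 had at most 1 such read in any library.

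At the footprint level 7 of the 10 genes had enough reads to be tested, and 7 passed the threshold: RELA, NFKB2, NFKBIB, NFKBIZ and IKBKB were higher in senescent cells, and NFKB1 and NFKBIA were lower. Over the 7562 genes tested, 54.3% passed, with 27.7% higher and 26.6% lower. NFKBIZ showed the largest change (4.81-fold). It reached the level asked by the filter on low counts in the Sen libraries alone, so its place above Pro was a condition of entry. The states did not overlap for 3 of the 7 (NFKB2, NFKBIZ and IKBKB), all higher in Sen, against 32.7% of all genes tested. Pro 1 held 1, 0 and 1 footprints of these genes, under the floor of 3 counts, so its place below the senescent libraries was not resolved. The median log2 fold change was 0.66 for the 7 genes and 0.01 for all. With library totals in place of TMM factors, RELA (adjusted p = 0.211) and NFKBIB (adjusted p = 0.166) lost their calls, and the higher share of all calls moved from 51.0% to 39.1%. Most of the calls rested on the deep libraries, since 3 of 8 tested members passed without Pro 3 and 2 of 8 without Sen 1. DESeq2 called 1 of the 7 (NFKBIZ).

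**Figure D2:**
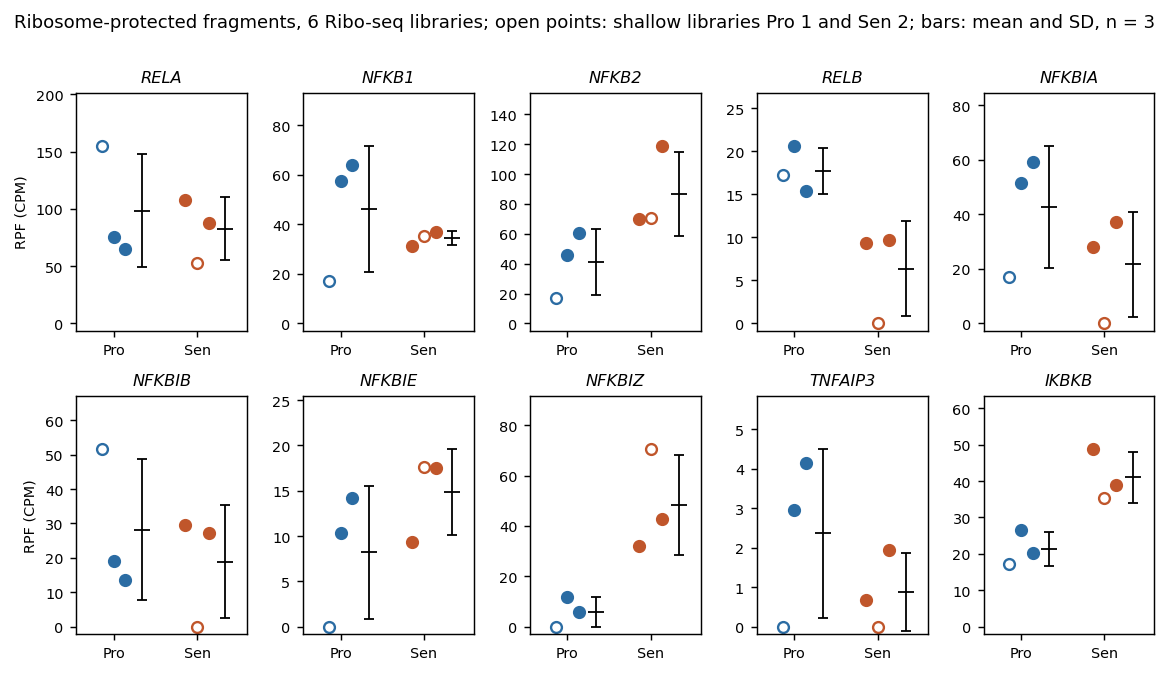
RPF in CPM (vertical axis) of the 10 genes in the 6 Ribo-seq libraries, with open points for the shallow libraries Pro 1 and Sen 2 and bars for the mean and SD (n = 3). NFKBIZ, NFKB2 and IKBKB are plotted higher in all 3 Sen libraries, with at most 1 footprint behind each Pro 1 point, and for RELA and NFKBIB the open Pro 1 point stands highest.

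NFKBIZ had 0, 8 and 10 footprints in the Pro libraries, in order of number, but 48, 4 and 22 in the Sen libraries. As CPM these were 0, 11.8 and 5.93 against 32.1, 70.6 and 42.9. Sen 1 and Sen 3 lay above both deep proliferating libraries, and the shallow Sen 2 library held 4 footprints. The log2 fold change was 2.27 (SE 0.39, adjusted p = 3.03e-06), and it was 2.18 (adjusted p = 6.08e-05) without the shallow pair. NFKBIZ entered the main test through the Sen libraries alone. When every gene with a read was admitted, it gave 2.25 (adjusted p = 6.01e-07). NFKBIZ was the only gene of the 7 that passed after leaving out any single library.

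NFKB2 footprints numbered 1, 31 and 102 in Pro and 105, 4 and 61 in Sen, or 17.2, 45.7 and 60.5 CPM against 70.2, 70.6 and 119 CPM. Sen 1 and Sen 3 lay above both deep proliferating libraries, Sen 3 most of all, and Pro 1 with its 1 footprint was not resolved. The fitted rise was 1.58-fold (log2 0.66, SE 0.23, adjusted p = 0.0157), opposite in sign to the mRNA change of this gene. It was not called without Sen 3 (log2 0.38, adjusted p = 0.277).

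IKBKB gave 17.2, 26.6 and 20.2 CPM of footprints in Pro and 48.8, 35.3 and 39.0 CPM in Sen. Pro 1 held 1 footprint and Sen 2 held 2, both under the floor of 3 counts, so separation was resolved in the deep libraries alone. The rise was 2.04-fold (log2 1.03, SE 0.29, adjusted p = 0.00369), and the log2 value was 1.03 (adjusted p = 0.00431) without the shallow pair. The call was lost without Pro 3 (adjusted p = 0.151) and without Sen 1 (adjusted p = 0.21).

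NFKB1 footprints were 17.2, 57.5 and 64.0 CPM in Pro and 31.4, 35.3 and 37.03 CPM in Sen. Pro 1, which is 1 footprint, lay below every senescent library, while Pro 2 and Pro 3 lay above them all. The fall was 1.81-fold (log2 -0.85, SE 0.26, adjusted p = 0.00604), close to the fall of its mRNA in size. Leaving out Pro 3 gave an adjusted p of 0.176 and leaving out Sen 1 gave 0.184.

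NFKBIA footprints were 17.2, 51.6 and 59.3 CPM in Pro and 28.1, 0 and 37.03 CPM in Sen, from 1, 35 and 100 against 42, 0 and 19 reads. Among the deep libraries both senescent values lay below both proliferating ones. The fall was 1.85-fold (log2 -0.89, SE 0.28, adjusted p = 0.00748), and the call was lost without Pro 3 (adjusted p = 0.186) or without Sen 1 (adjusted p = 0.189).

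For RELA the footprint values were 155, 75.2 and 64.6 CPM in Pro and 108, 53.0 and 87.7 CPM in Sen. The shallow libraries held the extremes, with 9 footprints in Pro 1 and 3 in Sen 2, so that the unweighted means ran downward, 98.3 ± 49.4 to 82.8 ± 27.7 CPM. The fit, which weighs reads, ran upward (log2 0.46, SE 0.21, adjusted p = 0.0636), and without the shallow pair it gave 0.56 (adjusted p = 0.0188). The call was lost without Pro 2 (adjusted p = 0.196), without Pro 3 (adjusted p = 0.624) and without Sen 1 (adjusted p = 0.657).

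NFKBIB followed the same pattern, with 51.7, 19.2 and 13.6 CPM in Pro and 29.4, 0 and 27.3 CPM in Sen. Its means ran downward, from 28.2 ± 20.5 to 18.9 ± 16.4 CPM, while the fit ran upward (log2 0.75, SE 0.35, adjusted p = 0.0786). Pro 1 held 3 footprints and Sen 2 none. Leaving out the shallow pair gave 0.89 (adjusted p = 0.0301), and the call was lost without Pro 3 (adjusted p = 0.642), Sen 1 (adjusted p = 0.535) or Sen 3 (adjusted p = 0.163).

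RELB, NFKBIE and TNFAIP3 did not pass the filter on low counts for the footprint test. RELB had 1, 14 and 26 footprints in Pro and 14, 0 and 5 in Sen. Its CPM of 17.2, 20.7 and 15.4 lay above all senescent values of 9.36, 0 and 9.75. Pro 1 with 1 footprint and Sen 2 with 0 were under the floor of 3 counts, so separation was resolved in the deep libraries alone. When every gene with a read was admitted, RELB gave a log2 fold change of -0.91 (SE 0.45, adjusted p = 0.136), which passes the threshold. Without the shallow pair it entered the test and passed as well (-0.85, SE 0.40, adjusted p = 0.0894). NFKBIE had 0, 7 and 24 footprints in Pro and 14, 1 and 9 in Sen, with -0.11 on the same terms (SE 0.45, adjusted p = 0.891). TNFAIP3 had 0, 2 and 7 against 1, 0 and 1 footprints, with -1.77 (SE 0.96, adjusted p = 0.181). In the deep library Sen 1, 1 TNFAIP3 footprint is under the floor of 3 counts, so its footprint level there was not resolved.

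Footprints of the 10 genes lay almost wholly in the coding sequence, with 1554 there, 21 in 5′ UTRs and 17 in 3′ UTRs over the 6 libraries. Per kilobase of coding sequence, RELA had the highest mean footprint level in both states, at 59.5 ± 29.9 CPM per kb in Pro and 50.1 ± 16.7 in Sen. These means weigh the shallow libraries Pro 1 and Sen 2 like the others, and the ranks below rest on them. In Pro the first rank of RELA rested on Pro 1 (93.8 CPM per kb, from 9 footprints). In Pro 2 and Pro 3 NFKBIA stood above RELA, at 54.3 and 62.4 against 45.5 and 39.1 CPM per kb. NFKB2 held rank 2 in Sen at 32.1 ± 10.4 and rank 5 in Pro at 15.2 ± 8.15. NFKBIZ held rank 4 in Sen (22.5 ± 9.22) and rank 9 in Pro (2.74 ± 2.74). Its rank above NFKBIB in Sen rested on Sen 2, at 32.8 against 0 CPM per kb. In Sen 1 and Sen 3 NFKBIB stood above NFKBIZ, at 27.5 and 25.5 against 14.9 and 19.9 CPM per kb. Neighbours in these orders overlapped over their 3 libraries at every step except NFKB1 (11.9 ± 0.988) above RELB (3.67 ± 3.18) in Sen.

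Translational efficiency (TE), the log2 ratio of RPF to mRNA within a lysate, asks whether footprints changed beyond the mRNA. NFKB2 and NFKBIZ rose in TE, and no gene of the set passed the threshold downward. These are 2 of 7 genes tested, where 10.2% of the 7512 tested genes passed, 6.4% higher and 3.78% lower. The states did not overlap for 4 of the 7 (NFKB1, NFKB2, NFKBIZ and IKBKB), all higher in Sen, against 16.3% of tested genes, a count that includes Pro 1 and Sen 2 lysates with 0 to 4 footprints of these genes. The median TE change was 0.13 for the 7 genes and 0.03 for all. The split of all calls depended on the scaling, with 62.9% of them higher under TMM factors, 53.2% under RLE size factors and 44.1% under library totals, while both calls of the set held under each. Neither call was made by DESeq2 or by limma-voom (adjusted p = 0.444 for NFKB2 and 0.517 for NFKBIZ by voom).

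**Figure D3:**
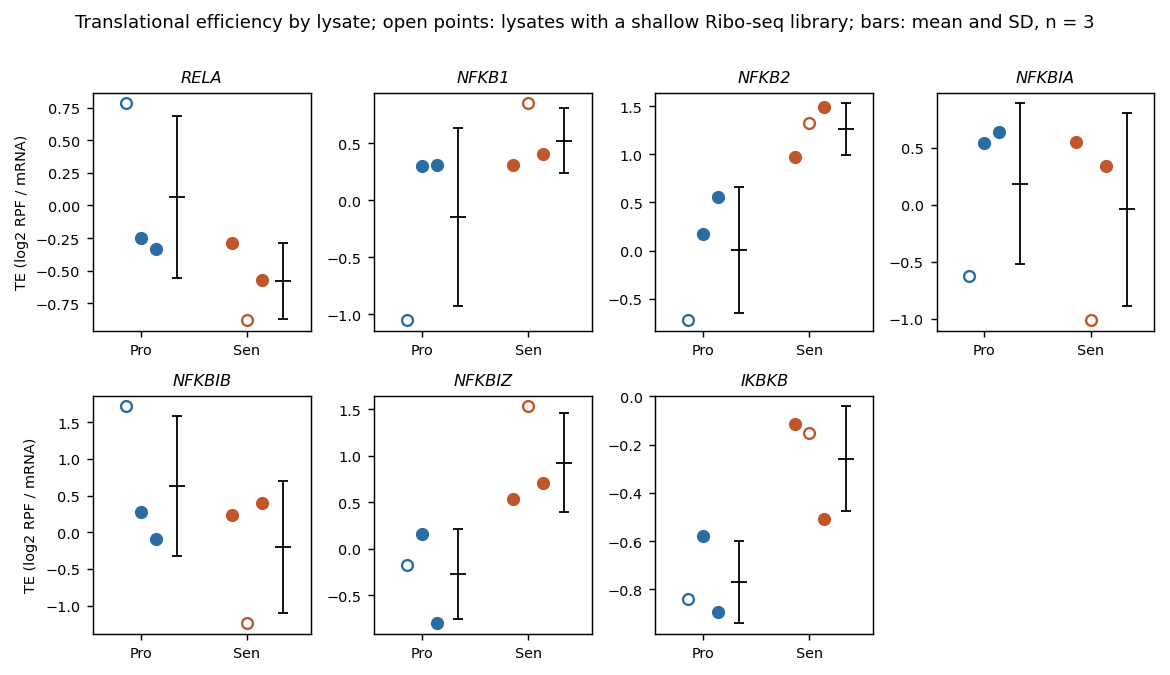
TE per lysate (vertical axis, log2 of RPF over mRNA after scaling) of the 7 genes tested, with open points for lysates whose Ribo-seq library was shallow and bars for the mean and SD (n = 3). NFKB2, NFKBIZ and IKBKB stand higher in all 3 Sen lysates, and NFKB1 does so by a hair, from 0.308 in Pro 3 to 0.312 in Sen 1.

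NFKB2 had a TE of -0.72, 0.17 and 0.56 in Pro 1, 2 and 3 and of 0.97, 1.33 and 1.49 in Sen 1, 2 and 3. Each senescent lysate was above each proliferating one, with Pro 1 resting on 1 footprint and Sen 2 on 4. The interaction of library type with state was 0.85 on the log2 scale (SE 0.25, adjusted p = 0.0404). It was 0.79 (adjusted p = 0.0578) without the shallow pair, and the call was lost without lysate Pro 2 (0.72, adjusted p = 0.283) and without Sen 3 (0.63, adjusted p = 0.398). NFKB2 is at chr10:104153867-104162281 in GRCh37.

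NFKBIZ had a TE of -0.17, 0.16 and -0.80 in Pro and of 0.53, 1.53 and 0.70 in Sen. The Pro 1 value comes from 0 footprints and is set by the added count of 0.5, so it bears no weight. Among the deep lysates both senescent values lay above both proliferating ones. The change was 1.19 (SE 0.42, adjusted p = 0.097), and 1.09 (adjusted p = 0.118) without the shallow pair. The call was lost without Pro 2 (1.55, adjusted p = 0.184), Pro 3 (0.70, adjusted p = 0.685), Sen 1 (1.33, adjusted p = 0.311) or Sen 3 (1.15, adjusted p = 0.349), and with every gene that had a read admitted (adjusted p = 0.205). NFKBIZ was the one gene of the set that passed the threshold upward in mRNA, in footprints and in TE, the last of these resting on few footprints. It entered the main footprint and TE tests through the Sen Ribo-seq libraries alone.

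IKBKB had a TE of -0.84, -0.58 and -0.89 in Pro and of -0.12, -0.15 and -0.51 in Sen. Its states were apart, but its change of 0.59 (SE 0.30, adjusted p = 0.283) did not pass. For the remaining genes the TE change was small beside its SE: 0.12 for NFKB1 (SE 0.29, adjusted p = 0.858), -0.14 for RELA (SE 0.22, adjusted p = 0.764), -0.11 for NFKBIA (SE 0.30, adjusted p = 0.874) and 0.13 for NFKBIB (SE 0.37, adjusted p = 0.881). These tests do not show that their TE was equal between the states. In simulated data of this depth, 64.44% of TE changes of 1 on the log2 scale and 100% of changes of 2 were recovered. Those data had 200 changed genes and no change of mRNA, unlike the cells here. The rates are averages over the changed genes in the fit and are not specific to genes at these counts.

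**Figure D4:**
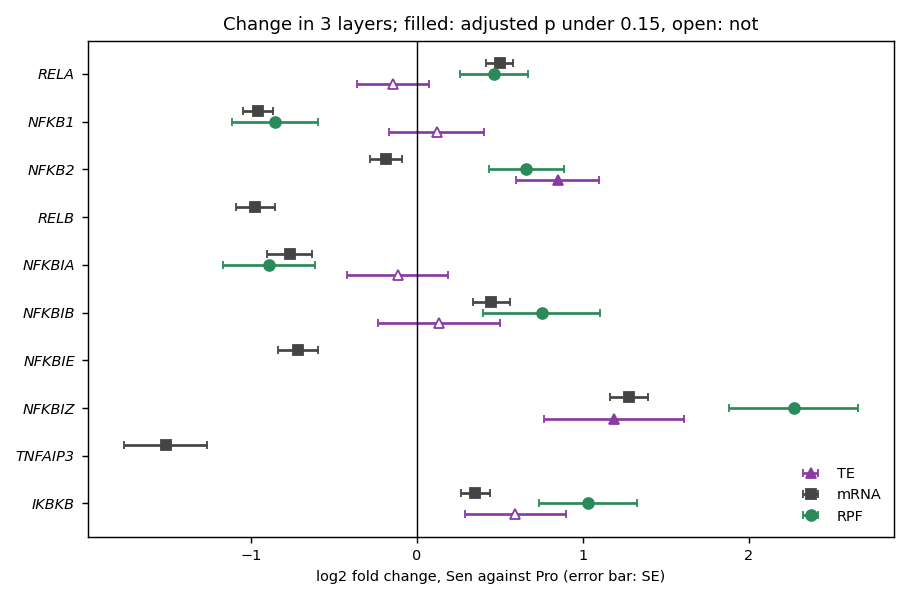
Log2 fold change of Sen against Pro (horizontal axis) with its SE for mRNA (squares), RPF (circles) and TE (triangles), filled where the adjusted p was under 0.15. NFKB2 is the only gene whose mRNA and RPF points lie on opposite sides of 0, at -0.19 and 0.66.

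The other genes of the pathway were grouped into 6 lists of 82 genes in all. In mRNA 66 of them were tested and 49 passed, 29 higher and 20 lower, with a median log2 fold change of 0.04, where 73.6% of all tested genes passed with a median of -0.01. In RPF 43 were tested and 24 passed (18 higher, 6 lower), where 54.3% of all tested genes passed. In TE 43 were tested and 7 passed, all higher, where 10.2% of all tested genes passed. The mRNA and RPF counts lie near those shares, so the lists below are described by their genes and not by how many passed.

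The remaining subunit and IκB genes all fell in mRNA. BCL3, a nuclear IκB protein that binds p50 and p52 homodimers, dropped from 55.4, 53.6 and 40.8 CPM in Pro to 20.002, 16.1 and 18.1 CPM in Sen, 2.77-fold (adjusted p = 2e-10). Its footprints numbered 6, 14 and 31 in Pro and 7, 0 and 0 in Sen (RPF log2 -2.63, SE 0.55, adjusted p = 8.46e-05). BCL3 thus moved opposite to NFKBIZ in both layers. In the footprint test BCL3 entered through Pro alone and NFKBIZ through Sen alone, so their opposite signs there were a condition of entry. Sen 1 held all senescent footprints of BCL3. Without that library the fit ran to -6.74, a value with nothing but zeros on the senescent side, while DESeq2 gave -3.97. REL, the gene of c-Rel, was lower by 1.85-fold (adjusted p = 0.00117), and NFKBID, a further nuclear IκB gene at 14 to 27 reads per library, by 1.51-fold (adjusted p = 0.0401). The NFKBID call was lost without Pro 3 (adjusted p = 0.167).

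Among 25 kinases, adaptors and ubiquitin ligases that carry the signal to IκB, 14 passed in mRNA, 9 higher and 5 lower, a smaller share than the 73.6% of all tested genes. MAP3K14 (NIK), the kinase that starts processing of p100, had 21.1, 23.2 and 21.1 CPM in Pro and 7.87, 6.16 and 7.31 CPM in Sen. All senescent libraries were lower, 3.10-fold in the fit (adjusted p = 1.09e-10). TRAF5, an adaptor of TNF-family receptors, was 2.06-fold lower (adjusted p = 2.47e-08), whereas TRAF6, the adaptor ligase of the Toll and interleukin-1 branch, was 1.65-fold higher (adjusted p = 9.84e-06). TRADD, the adaptor of TNF receptor 1, was 1.65-fold higher in mRNA (adjusted p = 3.89e-07) and 4.18-fold higher in RPF (adjusted p = 7.9e-07), from 0, 4 and 28 to 85, 1 and 28 footprints. IKBKG (NEMO), the regulatory subunit that joins IKKβ in the kinase complex, had an mRNA change of -0.07 on the log2 scale (SE 0.08, adjusted p = 0.442).

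The TE calls of this list were TRADD (1.47, SE 0.35, adjusted p = 0.0092), RNF31 (1.75, SE 0.39, adjusted p = 0.00424), TAB1 (1.10, SE 0.34, adjusted p = 0.0507) and IKBKG (0.63, SE 0.23, adjusted p = 0.0996). RNF31 is the catalytic ligase of the linear ubiquitin complex and TAB1 an activator of the kinase TAK1. RNF31 had 0, 13 and 10 footprints in Pro and 49, 1 and 16 in Sen, with an mRNA change of -0.07 (SE 0.11, adjusted p = 0.573). Every one of the 4 lost its call without some lysate. TRADD was lost without Pro 2 or Sen 1 and RNF31 without Pro 3 or Sen 1, while TAB1 and IKBKG were each lost without any deep lysate (Pro 2, Pro 3, Sen 1 or Sen 3). Without Pro 3 the TE change was 2.66 for TRADD and 1.14 for RNF31, and without Pro 2 it was 2.37 for RNF31. In RPF, TRADD gave 3.27 without Pro 3, and RNF31 gave 2.42 without Pro 2 and 0.85 without Pro 3.

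Of 12 receptors 9 were tested in mRNA and 8 passed, 5 higher and 3 lower, beside 73.6% of all tested genes. TLR4, the endotoxin receptor, had 0, 1 and 1 mRNA reads in Pro and 49, 58 and 54 in Sen (adjusted p = 4.46e-11), too few in Pro for a fold. It entered the test through the Sen libraries alone, so being higher in Sen was a condition of entry. CD40 rose from 10, 5 and 9 to 29, 64 and 39 reads (adjusted p = 6.97e-07). TNFRSF1B, the second TNF receptor, was 2.82-fold lower (adjusted p = 1.4e-10) and TLR3, a sensor of double-stranded RNA, 2.60-fold lower (adjusted p = 6.98e-05). CD14, a TLR4 coreceptor kept here as a leukocyte marker, had 2, 0 and 1 reads in Pro and 9, 12 and 9 in Sen, while PTPRC stayed at 0 to 2, and the part of other cells in the TLR4 and CD40 values was not tested. TNFRSF12A, the receptor of TWEAK, was called in TE (0.51, SE 0.17, adjusted p = 0.0857), a call lost without any of the 4 deep lysates.

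Ligands were scarce, with 2 of 8 tested in mRNA. IL1B fell 2.35-fold from 29, 44 and 48 reads to 9, 23 and 25 (adjusted p = 0.000125). TNFSF12, the gene of TWEAK, rose 1.38-fold (adjusted p = 0.00174). TNF had 0 reads in all 6 RNA-seq libraries, which at a floor of 3 counts allows at most 0.380 CPM in the shallowest of them.

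Of 13 negative regulators besides the inhibitors, 12 were tested in mRNA and 8 passed, 6 higher and 2 lower, beside the same 73.6%. TNIP1, a ubiquitin-binding partner of A20, had 127, 116 and 106 CPM in Pro and 274, 248 and 262 CPM in Sen. It rose 2.25-fold in mRNA (adjusted p = 1.56e-11) and 2.83-fold in RPF (adjusted p = 3.36e-06), opposite to TNFAIP3. RNF11, another A20 partner, was 1.90-fold higher in mRNA (adjusted p = 1.93e-10), and CYLD, a deubiquitinase of the same adaptors, was 1.34-fold higher (adjusted p = 6.33e-05). IRAK3 (IRAK-M), which blocks Toll signalling, was 5.60-fold lower, with 45, 61 and 52 reads in Pro and 11, 15 and 5 in Sen (adjusted p = 1.45e-08). None of this list passed in TE.

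Target genes moved in both directions, with 15 of 21 tested in mRNA and 8 higher and 6 lower, again beside 73.6% of all tested genes. CXCL8, the chemokine interleukin-8, had 15, 10 and 10 reads in Pro and 93, 184 and 299 in Sen, a 14.7-fold rise (adjusted p = 6.71e-09) with Sen 3 highest. On CDS reads alone the rise was 9.37-fold. CSF2 went from 4, 2 and 1 reads to 18, 30 and 30 (adjusted p = 4.31e-07). CSF2 entered the test through the Sen libraries alone, so being higher in Sen was a condition of entry. LIF, a cytokine of the interleukin-6 family, fell 3.24-fold from 110, 109 and 103 CPM to 34.9, 29.2 and 35.5 CPM (adjusted p = 1.31e-13). VCAM1, an adhesion molecule, fell 2.90-fold from 147, 148 and 145 CPM to 41.9, 56.9 and 52.5 CPM (adjusted p = 1.74e-12). IER3, a survival gene, rose in mRNA by 1.38-fold and was called in TE (0.91, SE 0.20, adjusted p = 0.00408), as was IRF1, a transcription factor of the interferon response (0.79, SE 0.27, adjusted p = 0.0858). The IER3 call was lost without Pro 3 and the IRF1 call without any of the 4 deep lysates.

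**Figure D5:**
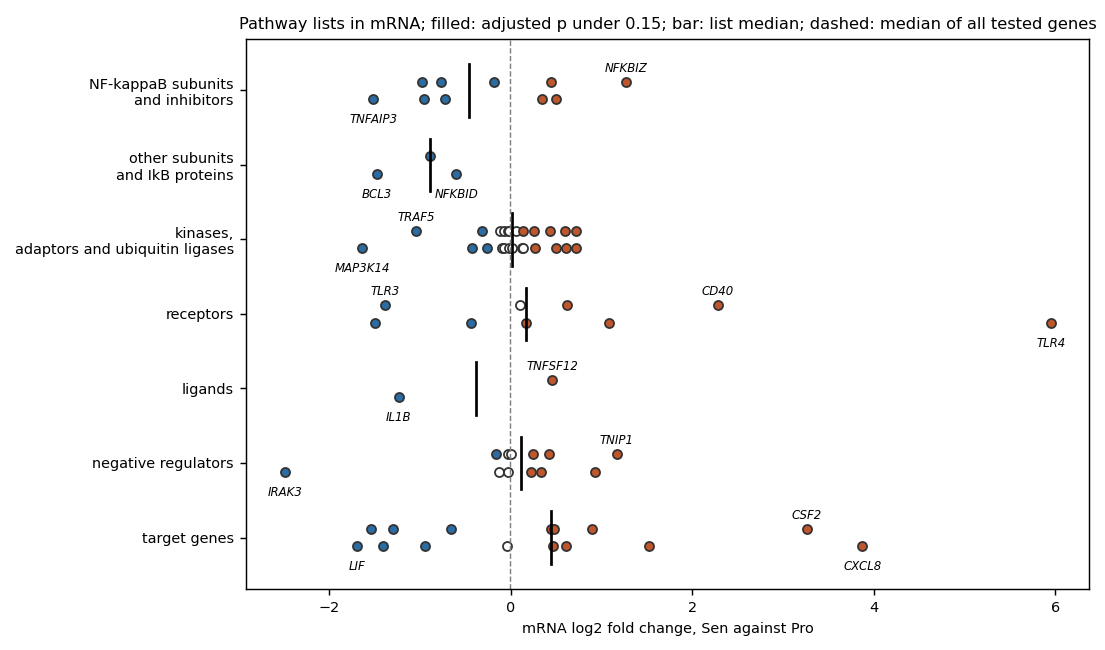
mRNA log2 fold change of Sen against Pro (horizontal axis) for each tested gene of the set and of the 6 pathway lists, 1 point per gene, filled where the adjusted p was under 0.15, with a bar at each list's median and a dashed line at the median of all tested genes. The lists hold points on both sides of 0, apart from the 3 further subunit and IκB genes, which all lie below it, and TLR4, CD40, CXCL8 and CSF2 rest on 10 or fewer reads in at least 1 Pro library.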

How the data were processed

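Per the labels, each of 6 IMR90 lysates gave a Ribo-seq library of ribosome-protected fragments and an RNA-seq library of poly(A) RNA. The authors deposited, for every library, an expected count per gene and transcript region (5′ UTR, CDS, 3′ UTR). Expected counts need not be whole, since reads that fit several features can be shared out, and 12.1% to 22.7% of nonzero values per library were not whole. The submitters' processing notes name cutadapt 1.18, Bowtie 1.0.1, SAMtools 1.8 and DESeq2 1.22.2. The genome build and strand rule of the counting are not given in the sources used here. No column of the tables was left unmapped.

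Whole counts had been planned for, so expected counts were rounded first. The filter on low counts (filterByExpr) asks for a minimum level in as many libraries as the smaller state holds. A gene low in 1 state can thus enter a test through the other state alone. Genes passing filterByExpr were fitted with edgeR 4.0.16 (R 4.3.3) by the quasi-likelihood test with TMM factors, and p-values were adjusted over all genes tested by the Benjamini-Hochberg method, with 0.15 as the threshold. TE was the interaction of library type and state over 12 libraries with the lysate as a block, and TE per lysate used an added count of 0.5. Simulated data with 200 changed genes were tested first: at a log2 change of 1, 100% of mRNA, 73.33% of RPF and 64.44% of TE changes were recovered, in fits of 7509, 7145 and 7142 genes. Unchanged genes made up 15.6% of the mRNA calls, 7.74% of the RPF calls and 6.37% of the TE calls in those fits. No replicates looked like one library deposited again, since a chi-square test of their counts gave 1.32 to 10.3 for each degree of freedom. Alternatives used DESeq2 1.42.0, limma 3.58.1 (voom) and an analysis of partial variance, fitted as an ordinary linear model for each gene. Further alternatives were other scalings, no filter on low counts, thinned RNA-seq, libraries left out and the replicate block.

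The 10 genes and the pathway lists were chosen with earlier results of these data known. All 10 are named. From each pathway list the text names up to 4 genes with the largest mRNA change among those that passed and whose states were apart, and every gene called in TE. TNF, CD14 and the marker genes fall outside that rule and were named after their values were seen.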

Additional observations from a re-analysis of the deposited data

Results flagged for a closer look

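For 2 of the 7 genes tested the change in footprints differed from the change in mRNA, by the interaction term of the edgeR quasi-likelihood fit, which called 10.2% of the 7512 genes tested. DESeq2 (adjusted p = 0.999 for both) and limma-voom (adjusted p = 0.444 for NFKB2 and 0.517 for NFKBIZ) called neither. NFKB2 differed by 0.85 on the log2 scale (SE 0.25, adjusted p = 0.0404), with footprints higher and mRNA slightly lower in senescent cells, and TE was higher in all 3 Sen lysates than in any Pro lysate, Pro 1 resting on 1 footprint. NFKBIZ differed by 1.19 (SE 0.42, adjusted p = 0.097), with both layers higher, and Pro 1 had 0 footprints of it. NFKBIZ entered the test through the Sen Ribo-seq libraries alone. The part of Ribo-seq depth in either value was not tested beyond leaving libraries out. Without the shallow lysates Pro 1 and Sen 2 the differences were 0.79 for NFKB2 and 1.09 for NFKBIZ.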

How the results depend on the processing

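The mRNA results were the steadiest, with 408 values of single genes on the same side of the threshold under the alternatives and 11 no longer past it. Thinning RNA-seq to the Ribo-seq depth left 5 of 8 members, 4323 of all genes and 24 pathway genes called. In RPF, DESeq2 called 1 member (NFKBIZ), 1160 of all genes and 6 pathway genes. Leaving out 1 library at a time gave 2 to 8 members, 2705 to 4593 genes and 15 to 26 pathway genes, the lowest member count without Sen 1 and the highest without Pro 1 or Sen 2. Over single genes 220 RPF values kept their side and 45 did not.

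For same-numbered samples of Pro and Sen, deviations from the group means correlated at -0.07 to 0.09. The RPF and mRNA libraries of the same lysate, a known pair, gave only -0.05 to 0.07. The check thus cannot tell whether same-numbered samples were paired. With the replicate number as a block, RPF calls were 2 members (NFKB2 and NFKBIZ), 2400 genes and 15 pathway genes, and mRNA calls kept 10 members. For TE, dropping the lysate block gave 3 members (IKBKB was added, 0.73, adjusted p = 0.0949), 1358 genes and 11 pathway genes and turned RELA to 0.019.

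TE counts depended most on the method. DESeq2 called 0 members, 27 genes and 0 pathway genes (0 members and 156 genes at an unadjusted p under 0.05). limma-voom called 0 members, 46 genes and 0 pathway genes (2 members and 645 genes unadjusted). The analysis of partial variance called 0 members, 0 genes and 0 pathway genes (1 member and 526 genes unadjusted), while edgeR called 2, 765 and 7. Admitting every gene with a read gave 1 member, 428 genes and 4 pathway genes, and leaving out Pro 1 and Sen 2 gave 1199 genes. Leaving out 1 lysate at a time gave 0 to 2 members, 134 to 1117 genes and 1 to 9 pathway genes. The 0 counts came without Pro 2 (2 members and 900 genes unadjusted) and without Sen 3 (3 members and 951 genes unadjusted).

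The TE change of NFKBIB turned to -0.28 under DESeq2 and -0.55 under limma-voom, and ran from -0.17 to 0.18 with 1 lysate left out. NFKBIA ran from -0.33 to 0.037 likewise. Partial variance estimates another quantity, the state term when log footprints are fitted on log mRNA and state with a free slope. That term was opposite in sign to the TE change for NFKB1 (-2.22), NFKBIA (1.25), NFKBIB (-4.00) and NFKBIZ (-3.86). It was likewise opposite for TAB1 (-0.25), TNFRSF12A (-0.63) and IER3 (-0.55). The cause was not tested. With 2.29% of all CDS footprints in Pro 1 and Sen 2, footprint results rest mainly on 4 libraries. RELB, which the filter left out, passed without that pair and with every gene that had a read admitted.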
